A study of Mus musculus with 6 samples.

Results

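Proteasome gene expression in Kupffer cells, which are liver macrophages, was compared between Trem2-deficient and wild-type mice. Members were the protein-coding genes whose symbol begins with Psm, a letter from a to g and a digit. This rule found 50 of the 54532 genes in the table. The Trem2_KO group held 3 libraries of sorted cells from male mice with a Trem2 deficiency, and the WT group held 3 libraries from male wild-type littermates. All mice, controls included, were 8 weeks old when a high fat diet began and were kept on it for 8 weeks. The labels give neither the deleted part of Trem2 nor the sorting gate. They also do not state that libraries come from different mice, so the spread behind each p-value may be technical.

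The proteasome degrades proteins that carry ubiquitin chains. Its barrel, the 20S core, is built of alpha rings that gate the entrance and beta rings that hold the active sites. The 19S regulatory cap binds, unfolds and feeds the substrate, with a base that contains ATPases and a lid that removes ubiquitin. In immune cells and under interferon gamma, the catalytic subunits Psmb8, Psmb9 and Psmb10 replace Psmb5, Psmb6 and Psmb7 to form the immunoproteasome, which favours peptides for MHC class I. Psme1 and Psme2 encode PA28 alpha and beta, an activator that can take the place of the cap.

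Total counts ran from 15799351 to 17135603 per library. Trem2 itself had 16.6, 17.4 and 14.5 CPM (reads scaled to library total, with TMM normalization) in the Trem2_KO libraries, against 84.8, 90.1 and 84.3 CPM in the WT libraries, as the labels have it in 6 of 6 libraries. Summed CPM of 12 Kupffer cell markers, all of them tested, was 42870 to 43400 in Trem2_KO and 48290 to 49500 in WT, and 10 of the 12 were called lower. Over all tested genes 15.1% were called lower, and 27% among those with a mean of at least 47.5 CPM. Adgre1 and Csf1r were the markers not called, with log2 changes of -0.0175 and -0.0045. Fewer cells of a type and less RNA per cell cannot be told apart in such bulk samples.

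Most proteasome transcripts that were called differed by small amounts, and every call was lower in Trem2_KO Kupffer cells. Of the 50 members 49 were tested, 28 were called lower and 0 higher at an adjusted p under 0.05 (edgeR quasi-likelihood test, Benjamini-Hochberg over 13776 genes). Over all tested genes 15.1% were called lower and 15.3% higher, 30.4% in all. With library totals in place of TMM, 61.3% of all called genes were higher, against 50.3% with TMM. At an unadjusted p under 0.05 the counts were 31 members lower and 0 higher. The share of all tested genes at that threshold was not computed. DESeq2 called 20 members lower and 0 higher, against 10.7% of all tested genes called lower. The median log2 change was -0.17 over the tested members and -0.01 over all tested genes, and 47 of the 49 had a negative value. For 30 members every Trem2_KO library lay below every WT library, against 20.7% of all tested genes. Most members are well expressed, and small changes are called more often among such genes. Among the 4038 tested genes with a mean of at least 47.5 CPM, the lowest quartile of the members, 27% were called lower and the groups did not overlap in that direction for 31.5%, a set chosen after the data were seen.

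**Figure D1:**
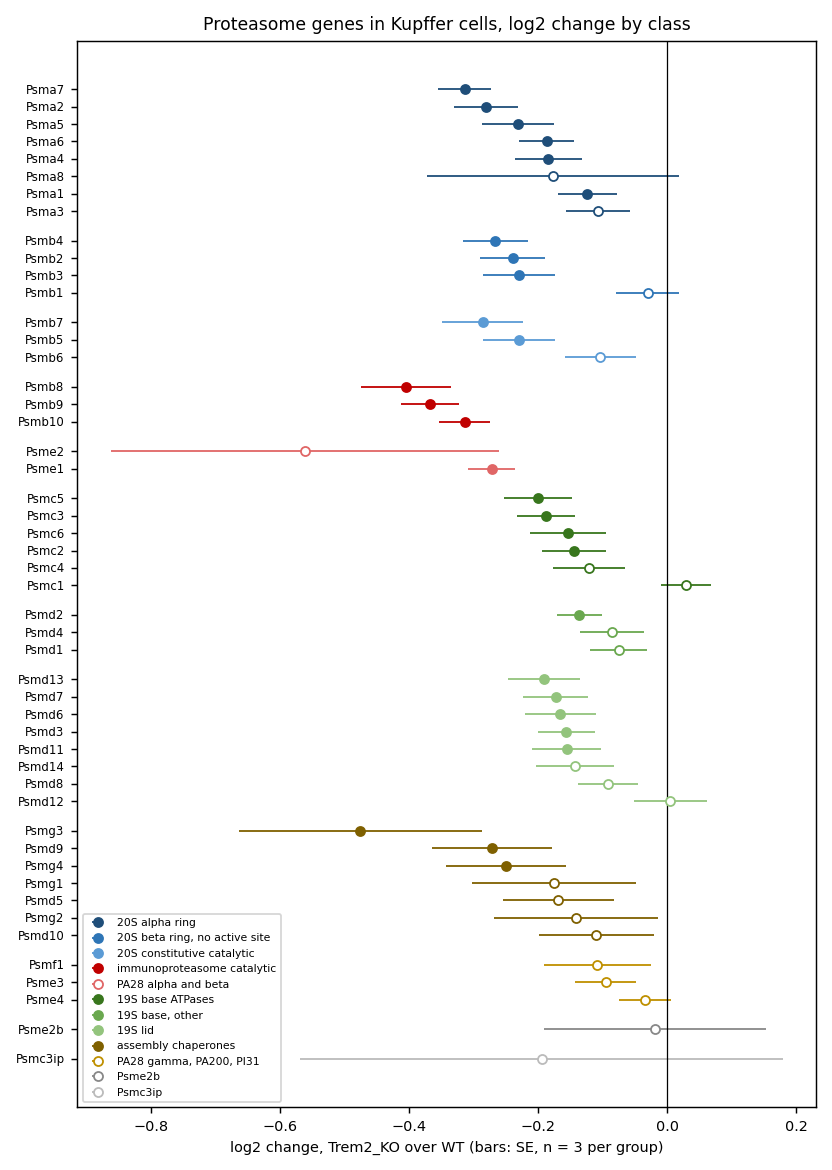
Log2 change of the 49 tested members, Trem2_KO over WT, by structural class, with SE bars (n = 3 per group) and filled points for calls at an adjusted p under 0.05. The catalytic subunits of the immunoproteasome lie between -0.40 and -0.31, most core and cap subunits lie nearer to 0, and the bars are wide for Psme2 (SE 0.301) and widest for the rarely read Psmc3ip (SE 0.374).

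The immunoproteasome genes had the lowest median of the core, cap and immunoproteasome classes, at -0.37 over 5 tested members, of which 4 were called lower. The core median was -0.23 over 15 tested members, with 11 called lower, and the cap median was -0.14 over 17, with 10 called lower. The differences between these medians were not tested. Outside the immunoproteasome 24 of 44 tested members were called lower. These counts, and those of the smaller classes further on, stand beside 15.1% called lower over all tested genes. Among tested genes with a mean of at least 47.5 CPM the share was 27%.

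Psmb8 encodes the inducible chymotrypsin-like subunit (ENSMUSG00000024338, chromosome 17, 34197721 to 34201454, GRCm38). It had 98.7, 87.0 and 84.9 CPM in the Trem2_KO libraries, against 116, 131 and 111 CPM in the WT libraries, without overlap. The level fell by 0.40 on the log2 scale (SE 0.0701, edgeR adjusted p = 0.000993). Psmb9 (ENSMUSG00000096727, chromosome 17, 34181988 to 34187764) encodes the inducible subunit that replaces the caspase-like Psmb6. It had 80.0, 82.1 and 75.4 CPM in Trem2_KO, against 104, 103 and 99.0 CPM in WT. Every knockout library lay below every wild-type one, and the log2 change was -0.37 (SE 0.0453, edgeR adjusted p = 3.02e-09), a level 22.5% lower. Psmb9 overlaps Tap1, a subunit of the peptide transporter, on the other strand. Tap1 begins at 34187553, so the genes share only the stretch from 34187553 to 34187764, where both start. Tap1 had 13004 reads in its whole span over the libraries, against 8812 for Psmb9. Without a stated strand setting, reads of the shared stretch cannot be told apart.

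Psmb10, the inducible trypsin-like subunit (ENSMUSG00000031897, chromosome 8), had 117, 118 and 114 CPM in Trem2_KO, against 140, 149 and 144 CPM in WT. The groups did not overlap, and the log2 change was -0.31 (SE 0.0390, edgeR adjusted p = 3.67e-09). Psmb8 and Psmb9 lie 14.1 and 14.2 Mb from Trem2 on the same chromosome. Psmb10 and the PA28 genes lie on other chromosomes. Psmb1, a core subunit without an active site and 32.8 Mb from Trem2, was not called (log2 change -0.03, SE 0.0488). Any part of the position relative to Trem2 in these values was not tested.

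PA28 alpha gave a clear value and PA28 beta did not. Psme1 had 165, 157 and 156 CPM in Trem2_KO, against 185, 201 and 191 CPM in WT, and fell by 0.27 on the log2 scale (SE 0.0366, edgeR adjusted p = 2.85e-08). Psme2 had 51.4, 54.0 and 37.1 CPM in Trem2_KO, against 83.3, 80.2 and 46.7 CPM in WT. The third library of each group was the lowest, the groups overlapped, and the log2 change of -0.56 had an SE of 0.301 (edgeR adjusted p = 0.262).

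Psme2 has a copy in a single exon, Psme2b, which is itself a member by the name rule. Their coding sequences in GENCODE M21, 717 bases each, were identical at 712 positions, with a longest identical run of 311 bases. The stretch of 120 coding bases with most differences is shown to make visible how little separates reads of the 2 genes, with the differing bases in capitals. It covers coding positions 424 to 543 in both. The genome span is chr14:55588049-55588449, minus strand and with an intron inside it, for Psme2 and chr11:48945576-48945695, minus strand, for Psme2b (GRCm38).
Psme2: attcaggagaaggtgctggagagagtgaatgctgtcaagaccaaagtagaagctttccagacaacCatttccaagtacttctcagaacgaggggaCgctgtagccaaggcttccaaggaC
Psme2b: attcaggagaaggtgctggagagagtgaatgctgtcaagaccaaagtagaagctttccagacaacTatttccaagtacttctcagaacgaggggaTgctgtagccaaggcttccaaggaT

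The share of the pair's reads assigned to Psme2b differed between libraries of one group. It was 60.9%, 55.1% and 67.7% in the Trem2_KO libraries, against 44.4%, 46.0% and 66.5% in the WT libraries. Psme2b had 80.1, 66.3 and 77.9 CPM in Trem2_KO, against 66.6, 68.2 and 92.6 CPM in WT, so it was high in the third WT library, where Psme2 was low. The sum of both genes varied less, at 132, 120 and 115 CPM in Trem2_KO, against 150, 148.5 and 139 CPM in WT. With the 2 genes counted as 1, a choice made after their values were seen, the log2 change was -0.25 (SE 0.0424, edgeR adjusted p = 4.74e-06), and all 3 Trem2_KO libraries lay below all 3 WT libraries. Psme2b also overlaps 9930111J21Rik1 and Gm12185 on its own strand.

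**Figure D2:**
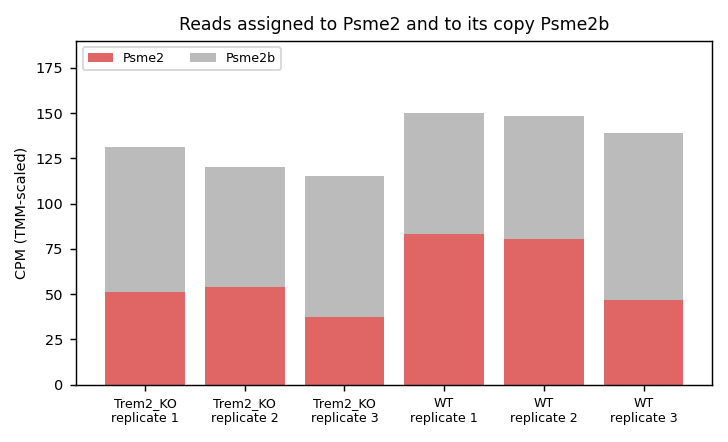
Reads assigned to Psme2 (lower part of each bar) and to its copy Psme2b (upper part) in each library, as TMM-scaled CPM. The whole bar is at 115 to 132 CPM in Trem2_KO and at 139 to 150 CPM in WT, while the division inside it differs between libraries of one group.

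Of the constitutive partners of the inducible catalytic subunits, 2 of 3 were called lower, and 1 of 3 with the gene length trend described further on removed. Psmb7, the trypsin-like subunit, had 37.1, 40.4 and 33.9 CPM in Trem2_KO, against 45.1, 46.8 and 43.9 CPM in WT (log2 change -0.29, SE 0.0629, edgeR adjusted p = 0.000298). Psmb5, the chymotrypsin-like subunit, had 45.5, 45.2 and 42.5 CPM in Trem2_KO, against 51.4, 51.9 and 52.8 CPM in WT (log2 change -0.23, SE 0.0563, edgeR adjusted p = 0.00112). Both genes showed no overlap between the groups, but with the length trend removed Psmb5 was at -0.12 and no longer called (adjusted p = 0.0932). Psmb6, the caspase-like subunit, had 52.6, 55.4 and 50.1 CPM in Trem2_KO, against 54.7, 58.1 and 57.1 CPM in WT, with overlap and no call (log2 change -0.10, SE 0.0547, edgeR adjusted p = 0.151). Psmb7 overlaps Nek6 on the other strand, which had 18.2% as many reads.

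**Figure D3:**
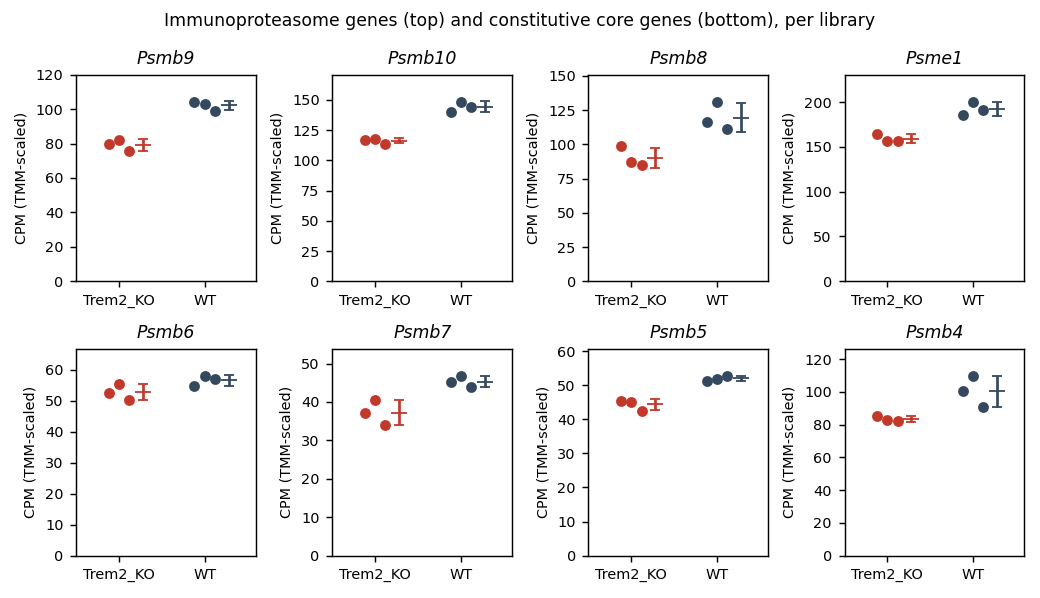
TMM-scaled CPM per library (points) with mean and SD (bars) for 4 immunoproteasome genes in the upper row and 4 constitutive core genes in the lower row, n = 3 per group. Points of Trem2_KO lie below those of WT in every panel but that of Psmb6, where 55.4 CPM in one Trem2_KO library exceeds 54.7 CPM in one WT library.

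Per length, the inducible subunit was the lower one of its pair for Psmb8 and Psmb9 in all 6 libraries and the higher one for Psmb10. In CPM, which is not divided by length, the inducible subunit was the higher one in every pair and library. The gene lengths used were 2736 bases for Psmb8 against 899 for Psmb5, and 3659 for Psmb9 against 1872 for Psmb6. For Psmb10 and Psmb7 they were 1705 and 3421 bases. The order within a pair and the shares given here depend on these lengths. Deposited FPKM are fragments scaled to gene length and to a library size that, set against the total count, was 1.014 to 1.016 in Trem2_KO and 0.989 to 0.995 in WT. FPKM summed over Psmb8, Psmb9 and Psmb10 was 126, 122 and 118 in Trem2_KO, against 152, 163 and 151 in WT. Summed over Psmb5, Psmb6 and Psmb7 it was 88.9, 91.1 and 83.5 FPKM in Trem2_KO, against 99.2, 102 and 102 FPKM in WT. The inducible share of this catalytic FPKM was 58.1% ± 0.683 in Trem2_KO and 60.6% ± 0.795 in WT (SD, n = 3 each), and its values did not overlap between the groups. Psmb10 supplied most of it, at 67.6 FPKM on average in Trem2_KO and 84.2 FPKM in WT.

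Pair by pair, the ratio of inducible to constitutive subunit differed in how far it moved. The FPKM ratio of Psmb9 to Psmb6 was 0.778, 0.759 and 0.769 in Trem2_KO, against 0.976, 0.908 and 0.887 in WT, without overlap. The ratio of Psmb8 to Psmb5 was 0.713, 0.633 and 0.656 in Trem2_KO, against 0.741, 0.831 and 0.690 in WT, with overlap. The ratio of Psmb10 to Psmb7 was 6.33, 5.83 and 6.72 in Trem2_KO, against 6.22, 6.37 and 6.60 in WT, and the groups overlapped throughout. These ratios are given as values with no test.

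**Figure D4:**
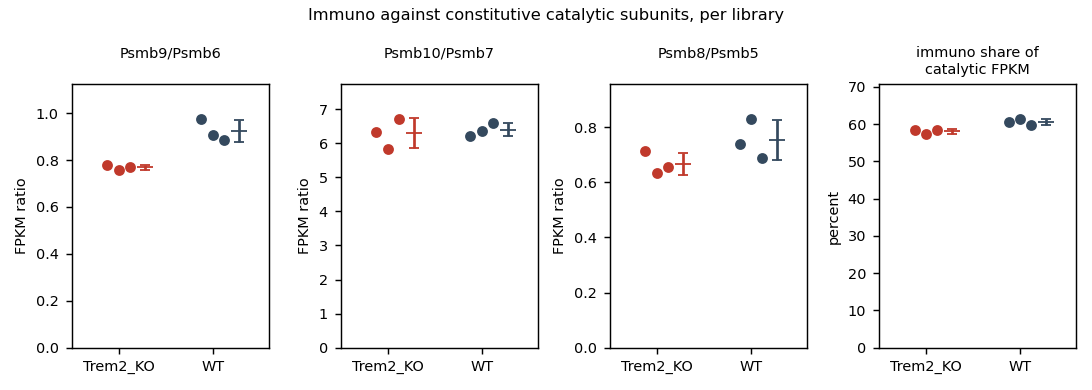
FPKM ratios of the inducible to the constitutive catalytic subunits, and the inducible share of their summed FPKM, per library (points) with mean and SD (bars), n = 3 per group. Psmb9/Psmb6 and the share do not overlap between groups, while the groups of Psmb10/Psmb7 and Psmb8/Psmb5 do.

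Promoters are shown for the pairs that hold a motif match, to set the inducible beside the constitutive genes. Those of Psmb10 and Psme1 held no match to the motifs searched and are not shown. Psmb7 had no promoter entry, so its pair with Psmb10 could not be compared. RefSeq promoters (GRCm38.p6) were matched for 42 of the 50 members, and the 250 bases before the RefSeq start were searched on both strands. That start can differ from the one of the gene span in the annotation used for the coordinates above: the stretches of Psmb8 and Psmb9 lie inside their gene spans, and that of Psmb5 does in part. Capitals mark a gamma interferon activation site (TTCNNNGAA) in Psmb8, a CCAAT box in Psmb9, read on the other strand, and an antioxidant response element core (TGACNNNGC) in Psmb5 and Psmb6. The spans are chr17:34197945-34198194 on the plus strand for Psmb8, chr17:34187331-34187580 on the minus strand for Psmb9, chr14:54617996-54618245 on the minus strand for Psmb5 and chr11:70525107-70525356 on the plus strand for Psmb6.
Psmb8: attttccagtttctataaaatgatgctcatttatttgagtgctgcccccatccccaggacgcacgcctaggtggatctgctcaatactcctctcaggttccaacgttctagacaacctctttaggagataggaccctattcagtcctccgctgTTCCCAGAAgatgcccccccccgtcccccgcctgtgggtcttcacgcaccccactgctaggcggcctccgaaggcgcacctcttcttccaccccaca
Psmb9: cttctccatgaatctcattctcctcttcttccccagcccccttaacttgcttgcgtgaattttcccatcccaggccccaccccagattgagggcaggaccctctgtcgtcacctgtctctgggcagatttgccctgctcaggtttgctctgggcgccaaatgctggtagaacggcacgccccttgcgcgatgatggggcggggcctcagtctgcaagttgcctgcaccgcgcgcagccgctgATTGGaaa
Psmb5: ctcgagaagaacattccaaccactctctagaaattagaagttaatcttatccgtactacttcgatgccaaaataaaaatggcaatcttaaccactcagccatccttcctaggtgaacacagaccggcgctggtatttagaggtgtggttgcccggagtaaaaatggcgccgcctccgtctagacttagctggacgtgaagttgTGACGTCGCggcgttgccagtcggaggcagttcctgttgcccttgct
Psmb6: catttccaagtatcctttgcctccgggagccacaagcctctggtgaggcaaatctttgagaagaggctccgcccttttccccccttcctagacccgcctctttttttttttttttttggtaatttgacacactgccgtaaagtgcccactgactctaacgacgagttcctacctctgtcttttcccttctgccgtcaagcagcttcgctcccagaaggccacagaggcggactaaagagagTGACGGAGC

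The members' matches were counted beside those of all promoters of the same length. The antioxidant response element core was found in 5 of the 42 member promoters (11.9%) and in 11.5% of 27025 genes with a promoter. The gamma interferon activation site was found in 2 of 42 (4.76%), Psmb8 and the chaperone gene Psmg1, and in 8.13% of all. An interferon regulatory factor element was found in 3 of 42 (7.14%), Psmb3, Psmd4 and Psmd9, and in 3.46% of all. The CCAAT box was found in 15 of 42 (35.7%) and in 37.5% of all. A match is a description of these letters and not a binding site.

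In the alpha ring of the core, 6 of 8 tested genes were called lower, beside 15.1% of all tested genes. Psma7 had 114, 108 and 106 CPM in Trem2_KO, against 131, 142 and 135 CPM in WT, a log2 change of -0.31 (SE 0.0410, edgeR adjusted p = 1.27e-08). Psma2 had 62.0, 64.2 and 63.5 CPM in Trem2_KO, against 73.2, 79.9 and 77.4 CPM in WT, a log2 change of -0.28 (SE 0.0496, edgeR adjusted p = 9.13e-06). Every Trem2_KO library lay below every WT library for both genes. Psma5 and Psma6 fell by 0.23 (SE 0.0561) and 0.19 (SE 0.0423) on the log2 scale, Psma4 by 0.18 and Psma1 by 0.12, while Psma3 was at -0.11 and not called. Psma8, the subunit that takes the place of Psma7 in testis, was read 52 to 65 times per library and was not called (log2 change -0.18, SE 0.195).

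Among the beta ring genes without an active site, 3 of 4 were called lower, beside 15.1% of all tested genes. Psmb4 had 85.4, 82.6 and 82.5 CPM in Trem2_KO, against 101, 110 and 90.9 CPM in WT (log2 change -0.27, SE 0.0501, edgeR adjusted p = 5.39e-05). The knockout libraries were close together and all lay below the wild-type ones. Psmb2 fell by 0.24 (SE 0.0506) and Psmb3 by 0.23 (SE 0.0564) on the log2 scale, and Psmb1 had 69.6, 71.5 and 74.7 CPM in Trem2_KO, against 72.9, 75.8 and 71.7 CPM in WT. Psmb11, the catalytic subunit of the thymoproteasome, which is made in the thymic cortex, had 0 reads in all 6 libraries, and a count of 0 allows up to 0.173 to 0.192 CPM. That limit, 3 counts per library, covers counting error only. Psma2 and Psma3 overlap other genes that had 9.30% and 5.28% as many reads.

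The cap median, -0.14, lay nearer to 0 than that of the core, -0.23. With the gene length trend described further on removed, the medians were close, at -0.11 for the cap and -0.12 for the core. Of the 6 ATPases of the base, Psmc3, Psmc5, Psmc2 and Psmc6 were called lower. Psmc3 had 87.8, 82.7 and 81.6 CPM in Trem2_KO, against 93.7, 97.1 and 96.5 CPM in WT (log2 change -0.19, SE 0.0449, edgeR adjusted p = 0.000829). It did not overlap between the groups, but Slc39a13 on the other strand overlaps it and had 58.9% as many reads. Psmc5 fell by 0.20 (SE 0.0529), Psmc6 by 0.15 (SE 0.0585) and Psmc2 by 0.14 (SE 0.05) on the log2 scale. Psmc4 was at -0.12 and not called. Psmc1 had 157, 160 and 147 CPM in Trem2_KO, against 149, 157 and 148 CPM in WT, with the groups interleaved (log2 change 0.03, SE 0.0385, edgeR adjusted p = 0.612).

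In the rest of the base, Psmd2, a scaffold that binds ubiquitin-like domains, had 181, 182 and 178 CPM in Trem2_KO, against 206, 195 and 194 CPM in WT. The groups did not overlap and the log2 change was -0.14 (SE 0.0349, edgeR adjusted p = 0.00186). Psmd4, a ubiquitin receptor, was at -0.09 and the scaffold Psmd1 at -0.08, both not called.

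The lid held 5 calls among 8 genes, all lower, beside 15.1% called lower over all tested genes. Psmd13, Psmd7, Psmd6, Psmd3 and Psmd11 fell by 0.19, 0.17, 0.17, 0.16 and 0.16 on the log2 scale, with SE from 0.0439 to 0.0558. Psmd3 had 101, 97.3 and 91.2 CPM in Trem2_KO, against 108, 104 and 111 CPM in WT. Psmd7 had 66.2, 66.7 and 69.5 CPM in Trem2_KO, against 76.1, 80.6 and 71.5 CPM in WT. Neither gene overlapped between the groups. Psmd14, the deubiquitinase of the lid, was at -0.14 (SE 0.0605, edgeR adjusted p = 0.0663) and Psmd8 at -0.09, neither called although their groups did not overlap. Psmd12 had 47.9, 50.0 and 45.6 CPM in Trem2_KO, against 48.0, 46.4 and 48.5 CPM in WT, a log2 change of 0.01 (0.0050, SE 0.0570). Psmd13 overlaps the pseudogene Gm15542 on its own strand, with 26.8% as many reads, and Sirt3 on the other, with 11.9%.

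Assembly chaperones had fewer reads and wider errors. Of 7 genes, Psmg3, Psmd9 and Psmg4 were called lower, with log2 changes of -0.48 (SE 0.188), -0.27 (SE 0.0932) and -0.25 (SE 0.0930). Psmg3 and Psmg4, chaperones of the alpha ring, had 3.41, 3.16 and 3.12 CPM and 15.6, 16.1 and 14.5 CPM in Trem2_KO, against 4.98, 3.96 and 4.54 CPM and 17, 18.4 and 19.5 CPM in WT. Psmd9, a chaperone of the cap base, had 14.8, 18.4 and 14.9 CPM in Trem2_KO, against 19.6, 18.9 and 19.4 CPM in WT. The groups of all 3 lay apart, but DESeq2 called none of Psmg3, Psmd9 and Psmg4 (adjusted p = 0.134, 0.0795 and 0.106), and Psmg3 and Psmg4 also lost the call with the length trend removed (adjusted p = 0.0907 and 0.292). Psmd9 overlaps Hpd, an enzyme of tyrosine breakdown that hepatocytes make, on the other strand, and Hpd had more reads (2041 against 1719). In the same libraries 6 of 10 hepatocyte markers were called lower and 1 higher, beside 15.1% lower and 15.3% higher over all tested genes. Their summed CPM was 1280 to 1329 in Trem2_KO and 1556 to 1620 in WT. Alb, Ttr and Hp were the hepatocyte markers not called, with log2 changes of -0.0479, -0.0927 and 0.0118. Alb alone averaged 779.7 CPM in Trem2_KO and 806 CPM in WT. The part of hepatocyte transcripts in the value of Psmd9 was not tested. Psmg1, Psmg2, Psmd5 and Psmd10 were at -0.18, -0.14, -0.17 and -0.11, not called.

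The other regulators were not called. Psme3, the nuclear PA28 gamma, was at -0.10 (SE 0.0477), Psmf1, the inhibitor PI31, at -0.11 (SE 0.0826) and Psme4, the activator PA200, at -0.03 (SE 0.0410). Psme4 had 108, 107 and 108 CPM in Trem2_KO, against 114, 108 and 109 CPM in WT, with overlap. Psmc3ip matches the name rule but encodes a partner of meiotic recombinases, and with 8 to 22 reads per library it was not called (log2 change -0.19, SE 0.374). It overlaps Mlx on the other strand, which had 1739 reads over the libraries against 101 for Psmc3ip.

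Gene length went with part of these values. The tested members had a median gene length of 2736 bases, against 3968 bases over all tested genes. Over all tested genes the median log2 change was -0.09 for genes of up to 2346 bases, -0.05 for those of 2347 to 3968 bases, 0.01 for those of 3970 to 6293 bases and 0.08 for longer ones. These length classes held 21, 18, 4 and 6 members. With this length trend removed, 18 members were called lower and 1 higher, against 13.3% of all tested genes called lower, and the median over the members was -0.12. Core calls went to 6 of 15, with a median of -0.12, and cap calls to 7 of 17 lower and 1 higher (Psmc1), with a median of -0.11. The calls lost were those of Psma1, Psma4, Psma5, Psma6, Psmb5, Psmc5, Psmc6, Psmd6, Psmd7, Psmg3 and Psmg4, at adjusted p from 0.0819 to 0.292, and Psmd1 was newly called lower. The same 4 immunoproteasome calls remained, with a median of -0.34 over the 5 genes, against -0.37 before. Psmb8 and Psmb9 were then at -0.35 and -0.34, Psmb10 at -0.22 and Psme1 at -0.20 on the log2 scale. What produced the length trend was not tested.

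**Figure D5:**
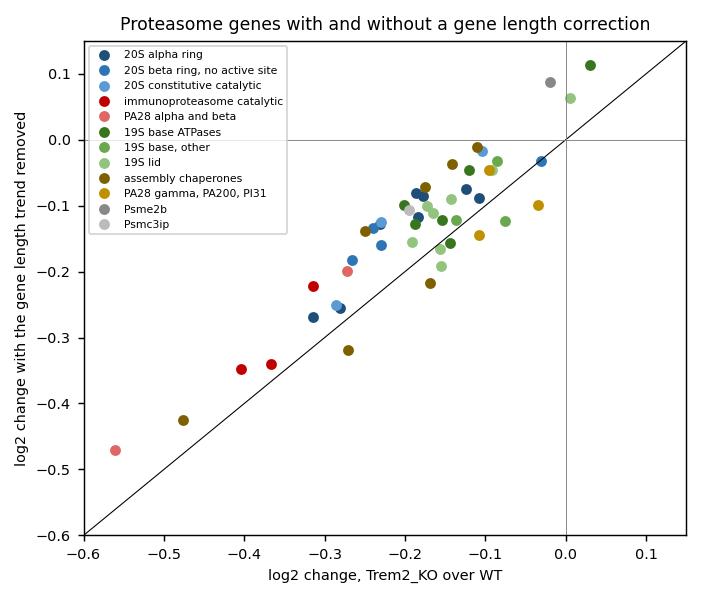
Log2 change of each tested member, Trem2_KO over WT (horizontal), against the same value with the gene length trend removed (vertical), with the line of equality. Most core and cap genes and all 5 immunoproteasome genes lie above the line, with medians after removal of -0.12 for the core, -0.11 for the cap and -0.34 for the immunoproteasome.

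Single libraries and settings decided some calls. With 1 library left out, 20 to 28 members were called lower, against 11.7% to 13.8% of all tested genes. The count was 27 members against 8.48% with no filter on low counts, and 20 members against 9.86% at an adjusted p under 0.01. Of the 28 called members, 12 kept the call in all 20 alternative analyses: Psmb8, Psmb9, Psmb10, Psme1, Psma2, Psma7, Psmb2, Psmb3, Psmb4, Psmb7, Psmc3 and Psmd2. Another 12 lost it without at least 1 library. Without Trem2_KO replicate 1 these were Psma1, Psmc2, Psmd6, Psmd9, Psmd11, Psmg3 and Psmg4 (edgeR adjusted p = 0.0515 to 0.181). Without Trem2_KO replicate 2 they were Psmc6, Psmd13 and Psmg3, and without Trem2_KO replicate 3 Psma1, Psma4, Psmc2, Psmc6, Psmd3, Psmd9, Psmg3 and Psmg4. Leaving out WT replicate 1 ended the calls of Psma1, Psmc2, Psmc6, Psmd9, Psmd11 and Psmg3, WT replicate 2 those of Psmc2, Psmd6, Psmd7, Psmd13 and Psmg4, and WT replicate 3 those of Psmd9, Psmd11, Psmg3 and Psmg4. Without WT replicate 2 the cap had 6 calls in place of 10. Psmc4 was called without Trem2_KO replicate 1, Psmd14 without Trem2_KO replicate 2, and Psma3, Psmc4, Psmd14 and Psme3 without WT replicate 3.

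Proteasome components and helpers that the name rule leaves out were described from a list of 11 genes, of which 10 were tested, with 3 called lower and 0 higher. Pomp, the maturation factor of the core, averaged 94.8 ± 5.02 CPM in Trem2_KO and 120 ± 0.909 CPM in WT (SD, n = 3 each), a log2 change of -0.34 (SE 0.0426, edgeR adjusted p = 6.26e-09). The cap subunit Sem1 fell by 0.26 (SE 0.0546) and Akirin2, which brings proteasomes into the nucleus, by 0.22 (SE 0.0592) on the log2 scale. With the length trend removed Pomp and Sem1 were at -0.35 and -0.22, and Akirin2 was no longer called (-0.12, adjusted p = 0.111). Usp14, a deubiquitinase bound to the cap, was at -0.15 and not called (edgeR adjusted p = 0.0549). With the length trend removed it was called lower (-0.18, edgeR adjusted p = 0.0209). The list median was -0.11, and 15.1% of all tested genes were called lower.

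Ubiquitin genes, activating enzymes and shuttles did not move as a block. Of 16 tested, 2 were called lower and 1 higher, with a median of -0.06, beside 15.1% lower and 15.3% higher over all tested genes. Zfand5, a protein that stimulates the proteasome, rose by 0.29 (SE 0.0375, edgeR adjusted p = 1.22e-08), with 164 ± 0.921 CPM in Trem2_KO and 134 ± 4.94 CPM in WT (SD, n = 3 each). The shuttle Ubqln1 fell by 0.13 (SE 0.0359) and the activating enzyme Uba1 by 0.09 (SE 0.0314) on the log2 scale. Ubqln1 lost its call without Trem2_KO replicate 2, and Uba1 without Trem2_KO replicate 3 or WT replicate 1.

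Genes around NRF1 and NRF2, transcription factors that can raise proteasome genes, were described from a list of 8. Of these 4 were called higher and 1 lower, with a median of 0.12, beside 15.3% called higher and 15.1% lower over all tested genes. Ddi2, the protease that cleaves NRF1 into its active form, averaged 253 ± 6.78 CPM in Trem2_KO and 197 ± 8.42 CPM in WT (SD, n = 3 each), a log2 change of 0.36 (SE 0.0345, edgeR adjusted p = 2.24e-12). The small Maf partners Maff and Mafg rose by 1.07 (SE 0.142) and 0.24 (SE 0.0383), while Nfe2l2, which encodes NRF2, fell by 0.15 (SE 0.0323) on the log2 scale. Nfe2l1, the gene of NRF1 itself and chosen for mention with its value known, had a log2 change of -0.0015 and no call.

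Genes of interferon gamma signalling and class I peptide supply held 6 calls lower and 2 higher among 12 tested, with a median of -0.11. Over all tested genes 15.1% were called lower and 15.3% higher. The 2 called higher were Jak2, at 0.15 (SE 0.0473), and Jak1, at 0.08 (SE 0.0303). Tap1 fell by 0.35 (SE 0.0385), Irf1 by 0.23 (SE 0.0357) and B2m, the class I light chain, by 0.22 (SE 0.0242) on the log2 scale. The Trem2_KO libraries lay below the WT libraries for Tap1, Irf1 and B2m, as they did for 20.7% of all tested genes. Over the alternative analyses B2m ranged from -0.2364 to -0.1073.

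Markers of other cell types were measured in the same libraries. B and plasma cell markers summed to 92.0 to 102 CPM in Trem2_KO and 117 to 121 CPM in WT, and 3 of 7 tested were called lower and 0 higher. Cell cycle genes summed to 241 to 249 CPM in Trem2_KO and 329 to 330 CPM in WT, with 7 of 8 called lower. Endothelial markers summed to 833 to 841 CPM in Trem2_KO and 739 to 751 CPM in WT, with 9 of 10 called higher. Monocyte markers summed to 409 to 419 CPM in Trem2_KO and 299 to 306 CPM in WT, with 4 of 8 called higher and 1 lower. Dendritic cell markers summed to 99.2 to 103 CPM in Trem2_KO and 97.5 to 103 CPM in WT, T and NK cell markers to 7.77 to 8.79 CPM in Trem2_KO and 6.45 to 8.06 CPM in WT, and neutrophil markers to 183 to 192 CPM in Trem2_KO and 193 to 209 CPM in WT. Ly6g was the only marker with 0 reads. These marker counts stand beside 15.1% called lower and 15.3% called higher over all tested genes. The part of these cells in the proteasome values was not tested.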

How the data were processed

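Deposited values were of 2 kinds: raw gene counts, in whole numbers, and FPKM, which the authors computed from those counts, gene length and a constant per library near its total, as checked by dividing one by the other. Per the submitters' processing notes, the builds were GRCm38 and mm10, and the tools were DESeq2 1.16.1, featureCounts 1.5.0-p3 and HISAT2 2.0.5. No source used here states the strand or multi-mapping setting.

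The count test was edgeR 4.0.16 under R 4.3.3, with filterByExpr, TMM, a robust quasi-likelihood fit and genotype as the only term. Calls needed an adjusted p under 0.05 over 13776 tested genes. Each SE was derived from the fold change and its quasi-F value. The length trend was a loess fit (span 0.5) on gene length, entered as an offset. DESeq2 1.42.0 and limma 3.58.1, with pseudocounts of 1 and 0.1 on FPKM, served as alternatives.

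Members, lists and tests were chosen with earlier results of these data known. Named were all immunoproteasome genes with their partners, up to 4 genes per class or list by smallest p, untested members and Trem2. Other genes were named with their values seen, and some genes of the lists are not reported here. Replicate numbers did not pair the samples (correlations of deviations -0.0079, 0.0031 and 0.036).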

Additional observations from a re-analysis of the deposited data

How the results depend on the processing

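The immunoproteasome had 4 or 5 calls lower in all 20 alternatives, and Trem2 kept its call (log2 change -2.47 to -2.12). Against 28 members called lower in the reported analysis there were 21 with total counts, 20 with DESeq2 and 18 after removal of the length trend. Of all tested genes 15.1% were called lower in the reported analysis, against 11.5%, 10.7% and 13.3% in these settings, in that order. With the replicate block 28 members were called lower (15.3% of all tested genes), and 19 (13.3%) with the length trend removed too. Core calls were 6 after length removal, both without and with the block, against 11. Cap calls were 6 with total counts, with DESeq2 and at an adjusted p under 0.01, against 10, and 6 to 11 when 1 library was left out. The causes were not tested. The median of the member log2 fold changes, -0.17, became -0.1427 with total counts, -0.152 on log2(FPKM + 1), -0.1216 after length removal, -0.1237 with the block added, and -0.1908 to -0.1654 without 1 library. Psme2 was called under the replicate block, alone (edgeR adjusted p = 1.33e-10) and with length removal (5.05e-08), and when summed with Psme2b.

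Some values near 0 changed sign. The Psme2b log2 change was 0.0112 with total counts, 0.087 after length removal, 0.0943 with the block added, and -0.1062 to 0.1472 without 1 library. The Psmb1 log2 change was 1e-04 with total counts. The Psmd12 log2 change was -0.0081 with no filter and -0.0274 to 0.0385 without 1 library. The Psmc3ip log2 change was -0.4614 to 0.1441 without 1 library. For the immuno to constitutive ratio Psmb10/Psmb7 the log2 value was -0.0732 to 0.0287 without 1 library.

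At an adjusted p under 0.01, 1359 genes were called lower, against 2079. Depth limits the rarest members, Psmc3ip, Psma8 and Psmg3.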
